A study of Mus musculus with 14 samples.

Results

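A set of 9 genes of cardiomyocyte calcium handling and contraction was followed through 12 lists of BMI1 and H2AK119ub peaks from mouse heart: Ryr2, Cacna1c, Atp2a2, Pln, Casq2, Myl3, Myh6, Tnnt2 and Ttn. They were chosen by name, as 9 of the 21887 protein-coding genes on the assembled chromosomes of GRCm38. A peak counted for a gene when it overlapped the span between the annotated gene boundaries, extended by 5 kb at either end. By this rule, 22 of the 39832 listed peaks belonged to the 9 genes.

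The lists come from ChIP-seq, the sequencing of DNA recovered with an antibody, here against BMI1 or H2AK119ub, from magnetically enriched Sca1+CD45- cardiac cells of C57BL/6 mice aged 6 to 8 weeks. Mice of the Damage groups had received 20 mg/kg paraquat in PBS once, by intraperitoneal injection, and mice of the Homeostasis groups PBS alone. The groups were Damage BMI1, Damage H2AK119ub, Homeostasis BMI1 and Homeostasis H2AK119ub, each with 3 libraries. Paraquat is a herbicide that generates superoxide by redox cycling. The 2 Input libraries, labelled as not treated, were not analysed here. The labels do not say whether replicates came from separate mice or pools, nor whether the cells had been cultured (at 3% oxygen) before fixation, so p-values measure only the spread between these libraries, which may be technical.

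In a cardiomyocyte, each beat starts with calcium entry through the L-type channel, which opens ryanodine receptors of the sarcoplasmic reticulum. The released calcium binds troponin on the thin filament and lets myosin pull on actin, and a calcium pump then returns it to the store. BMI1 belongs to Polycomb repressive complex 1, a family of complexes that attach ubiquitin to histone H2A and so make the H2AK119ub mark. In vertebrate cells this system is known for holding developmental genes silent, often at promoters rich in CG dinucleotides. Sca1 is a surface antigen of stromal, endothelial and progenitor-type cells, and the contractile members are known as products of cardiomyocytes, while Atp2a2 and Cacna1c are also expressed in other cell types.

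The 6 Damage lists held 19 to 68 peaks and the 6 Homeostasis lists 2000 to 13487. The lists give positions and a constant score, so depth is unknown and the number of peaks in a list cannot be scaled for it. Peak lists do not measure expression, so the sorted cell type could not be checked against RNA markers. At homeostasis, 3 of 4 stromal, 3 of 4 endothelial and 1 of 3 smooth muscle marker genes had a listed peak. Of the leukocyte ones 0 of 3 did, beside 19.3% of all protein-coding genes, a share not matched for length. Over the 3 leukocyte genes only 1.04 BMI1 and 1.48 H2AK119ub peaks were expected, so the 0 says little. The stromal genes held 6.47 times the BMI1 peaks and 5.46 times the H2AK119ub peaks expected for their lengths. These ratios rest on 6 peaks against 0.927 expected and 7 against 1.28. Several lists can name the same place, so such summed counts are not independent. The endothelial genes held 1.02 and 1.81 times the expected number, and the smooth muscle ones 2.09 and 2.39 times. Of the stromal peaks, 7 lay at Pdgfra, 5 at Dcn and 1 at Tcf21, while Col1a1 had 0. All 5 smooth muscle peaks lay at Myh11. Of the endothelial genes, Kdr and Cdh5 had their peaks in 1 list each. Ly6a, which encodes Sca1, had none.

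At homeostasis, 4 of the 9 genes had a listed peak: Ryr2 with 12 over the 6 lists, Cacna1c with 6, Myl3 with 3 and Myh6 with 1. The other 5 genes, Atp2a2, Pln, Casq2, Tnnt2 and Ttn, had 0 in every list. The share of all protein-coding genes with a peak in at least 1 Homeostasis list was 19.3%. The 2 longest of the 9 genes held 18 of the 22 peaks. The median over the 9 genes was 0 peaks over the 6 lists, and over all protein-coding genes it was also 0.

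**Figure D1:**
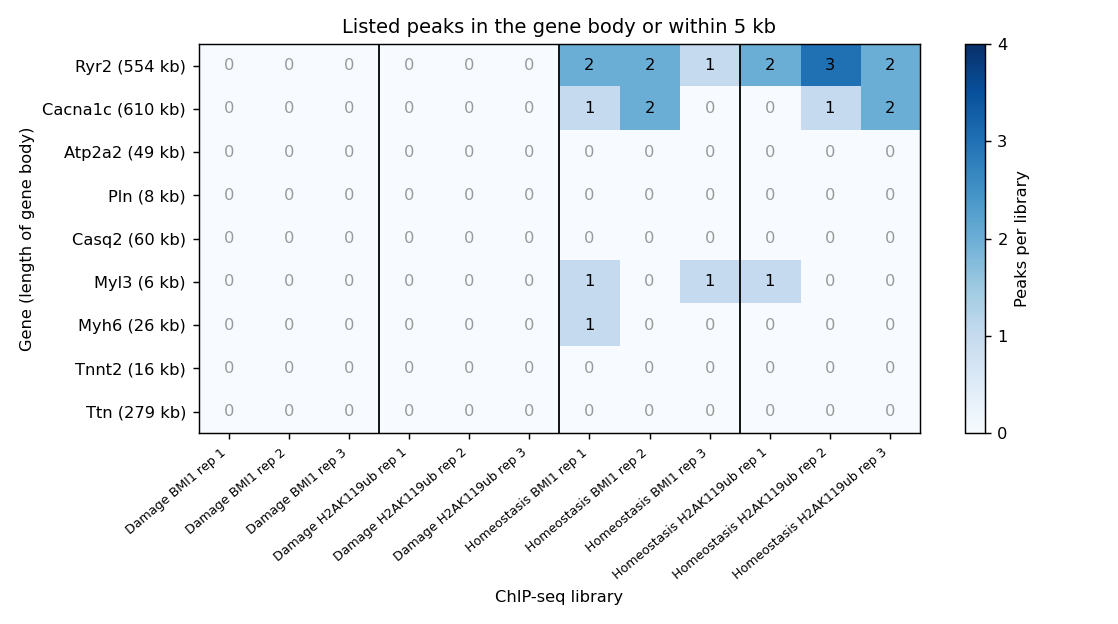
Peaks at each of the 9 genes, 5 kb on either side included (rows, with gene length) in each of the 12 libraries (columns, Damage left of Homeostasis). Numbers and colour give the count of listed peaks; the Damage columns hold 0 throughout, and only Ryr2 has a peak in all 6 Homeostasis lists.

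Ryr2 encodes the ryanodine receptor that releases calcium from the sarcoplasmic reticulum (chromosome 13, 11553099 to 12106945, minus strand, 554 kb). It had 2, 2 and 1 peaks in Homeostasis BMI1 replicates 1 to 3, and 2, 3 and 2 peaks in Homeostasis H2AK119ub replicates 1 to 3. The means were 1.67 ± 0.577 for BMI1 and 2.33 ± 0.577 for H2AK119ub (SD, n = 3 each). The number expected for its length was 1.22 BMI1 and 1.60 H2AK119ub peaks per library, so the total of 12 was 1.42 times the expected 8.46. Ryr2 was the one gene of the 9 with a peak in all 6 lists, as were 2.55% of protein-coding genes. Among the 197 protein-coding genes within 25% of its length, itself included, 23.4% had a peak in all 6 lists.

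The peaks of Ryr2 fell at few places. A region at 12082059 to 12082192, 24.8 kb inside the gene from its start, was found in 5 of 6 Homeostasis lists, all 3 of BMI1 and H2AK119ub replicates 2 and 3. The sixth list, H2AK119ub replicate 1, had a peak at 12081922 to 12082022, with a gap of 36 bp to that region. A region at 11889905 to 11890066, 217 kb from the start, was found in 5 lists: BMI1 replicates 1 and 2 and all 3 of H2AK119ub. A lone peak of H2AK119ub replicate 2 lay 427 kb from the start (11679891 to 11679991). Since several lists name the same places, counts summed over lists are not independent counts of sites. No other annotated gene overlapped these regions, and the nearest, a pseudogene, lay 89.3 kb from the closest of them.

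Cacna1c encodes the pore-forming subunit of the L-type calcium channel of cardiac muscle (chromosome 6, 118587240 to 119197384, minus strand, 610 kb). It had 1, 2 and 0 peaks in Homeostasis BMI1 replicates 1 to 3 (1.0 ± 1.0, SD, n = 3), and 0, 1 and 2 peaks in Homeostasis H2AK119ub replicates 1 to 3 (1.0 ± 1.0, n = 3). It is longer than Ryr2 and had fewer peaks: its total of 6 was 0.571 times the expected 10.5. Of 163 genes within 25% of its length, 63.8% had a BMI1 peak in 2 or more of 3 libraries, as Cacna1c did, and 75.5% an H2AK119ub peak. A region at 119070302 to 119070414, 38.1 kb from the nearest annotated start site, was found in 3 lists, BMI1 replicate 2 and H2AK119ub replicates 2 and 3. A region at 118972457 to 118972566 was found in BMI1 replicate 1 and H2AK119ub replicate 3. It overlapped the edge of an annotated lncRNA, Gm50599 (118972550 to 119014692), and whether that edge is the start of the lncRNA was not determined. BMI1 replicate 2 had a peak 49 bp away from that region, at 118972307 to 118972407. No peak of BMI1 replicate 3 or H2AK119ub replicate 1, the shortest Homeostasis list of each antibody, lay in the gene.

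**Figure D2:**
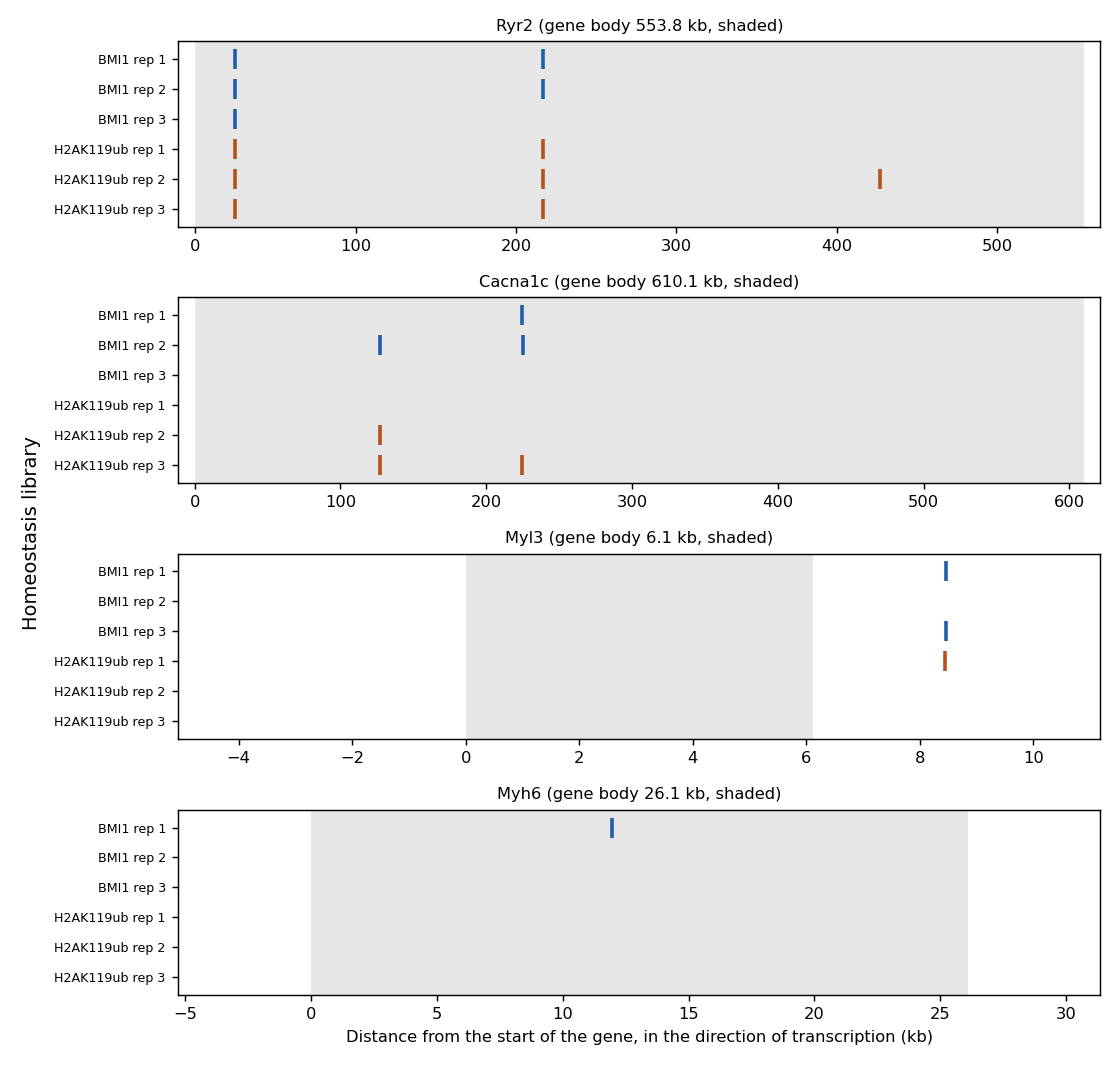
Positions of the listed peaks (ticks; BMI1 in blue, H2AK119ub in orange) in the 6 Homeostasis libraries along Ryr2, Cacna1c, Myl3 and Myh6, as distance in kb from the start of the gene in the direction of transcription, with the gene body shaded and 5 kb shown on each side. The ticks of different libraries line up at 24.8 and 217 kb in Ryr2, at 127 kb and near 225 kb in Cacna1c, and past the end of Myl3.

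Myl3 encodes the essential light chain of ventricular myosin (chromosome 9, 110763678 to 110769802, plus strand, 6.13 kb). It had 1, 0 and 1 peaks in Homeostasis BMI1 replicates 1 to 3, and 1, 0 and 0 in Homeostasis H2AK119ub replicates 1 to 3. All 3 peaks made up a region 2.33 kb past the end of the gene, at 110772074 to 110772188, so the gene body itself held 0. The total of 3 compares with 0.258 expected, but it stands for 1 place that 3 lists share. Of 1993 genes within 25% of the length of Myl3, 92.7% had no peak in any Homeostasis list. The next nearest annotated gene was a pseudogene 17.6 kb away.

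Myh6 encodes the alpha myosin heavy chain, the fast motor of the adult mouse heart (chromosome 14, 54941921 to 54968017, minus strand). It had 1 peak in Homeostasis BMI1 replicate 1 and 0 in the other 5 Homeostasis lists, against 0.533 expected in all. The peak lay in the gene body at 54956009 to 54956109. The nearest other annotated gene was a lncRNA, Gm52092, 1.04 kb away, and the next was Mir208a, the gene of a cardiac microRNA, 6.87 kb away. A peak in 1 list of 6 has no replicate behind it.

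Ttn encodes titin, the giant spring protein of the sarcomere (chromosome 2, 76703980 to 76982557, minus strand, 279 kb). It had 0 peaks in each of the 6 Homeostasis lists, while its length gave an expected 4.08 over the lists, 1.72 for BMI1 and 2.36 for H2AK119ub. The nearest listed Homeostasis peak lay 56.5 kb outside the gene. Of 492 protein-coding genes within 25% of its length, 24.2% also had no peak in any Homeostasis list, so an empty gene of this size was not rare.

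The other 4 genes without a peak are shorter, and little was expected of them. Casq2 encodes calsequestrin, the calcium-binding protein inside the sarcoplasmic reticulum (chromosome 3, 102086415 to 102146514), and its expected total was 1.09. Atp2a2 encodes the SERCA2 calcium pump (chromosome 5, 122453513 to 122502225), with 0.897 expected. For Tnnt2, which encodes cardiac troponin T (chromosome 1, 135836315 to 135852268), 0.378 were expected. For Pln, which encodes phospholamban, the inhibitor of that pump (chromosome 10, 53337686 to 53345999), 0.277 were expected. The nearest Homeostasis peak lay 32.5 kb from Casq2, 19.5 kb from Atp2a2, 36.6 kb from Tnnt2 and 74.9 kb from Pln. A count of 0 at these lengths does not separate them from other genes.

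**Figure D3:**
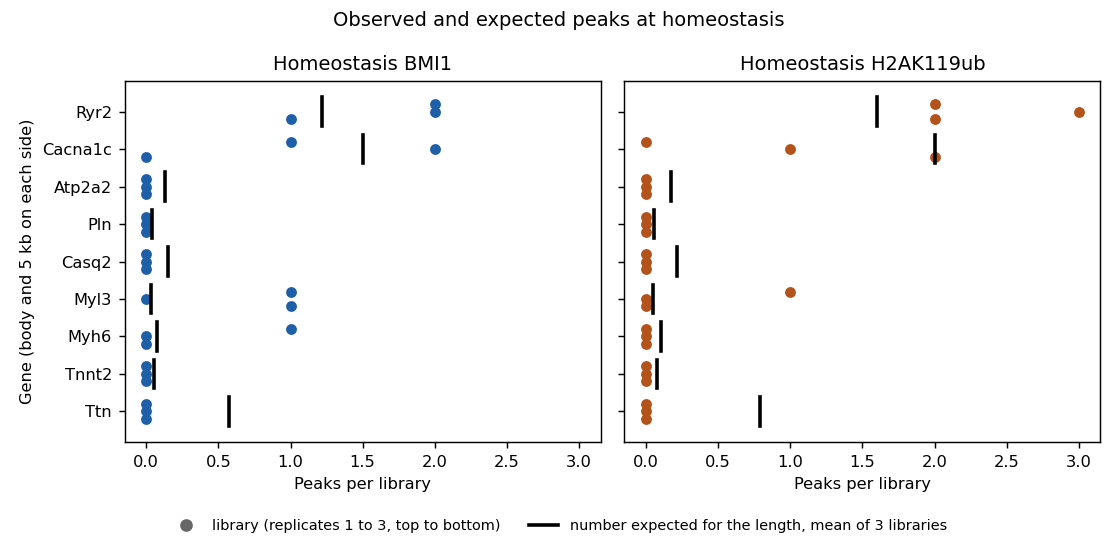
Listed peaks per Homeostasis library (points, replicates 1 to 3 from top to bottom within a gene) and the number expected for the length of the gene (black bar, mean of 3 libraries), for BMI1 on the left and H2AK119ub on the right. Of the Ryr2 points, 5 of 6 lie right of the bar, all 6 Ttn points lie at 0 against 0.572 and 0.786 expected, and at the 6 genes of 60.1 kb or less the expected number is at most 0.213 per library.

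Summed over the 9 genes, BMI1 libraries held 5, 4 and 2 peaks against 3.28, 5.19 and 2.82 expected. The total of 11 BMI1 peaks was 0.974 times the expected 11.3, and the mean of the library ratios was 1.0 ± 0.454 (SD, n = 3). H2AK119ub libraries held 3, 4 and 4 against 1.40, 8.69 and 5.09 expected. The total of 11 H2AK119ub peaks was 0.725 times the expected 15.2, while the mean of the library ratios was 1.13 ± 0.888 (SD, n = 3), on the other side of 1. The H2AK119ub ratio was highest in replicate 1, the list of 2000 peaks, at 2.14, and lowest in replicate 2, the list of 13487, at 0.460; without replicate 1 the mean was 0.623, and without replicate 2 the ratio of totals was 1.08. Genes with a peak in at least 2 of 3 libraries numbered 3 of 9 for BMI1 (Ryr2, Cacna1c and Myl3), against 7.34% of all protein-coding genes, and 2 of 9 for H2AK119ub (Ryr2 and Cacna1c), against 9.63%. In the longest of 10 length classes, where Ryr2, Cacna1c and Ttn stand, 33.7% of genes reached this for BMI1 and 41.8% for H2AK119ub, and in the class of Myl3 2.7% did for BMI1. The BMI1 peaks of Cacna1c did not overlap between libraries by 1 bp or more. With peaks joined when their centres lay within 500 bp, those of BMI1 replicates 1 and 2 shared a region (118972307 to 118972566). Whether its BMI1 recurrence is of a region or only of the gene thus depends on the overlap rule. With peaks required in another library of the group, the BMI1 count was 2. The BMI1 count was 1 without Homeostasis BMI1 replicate 1, and the H2AK119ub count was 1 without replicate 2 or without replicate 3 of Homeostasis H2AK119ub.

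By overlap of 1 bp or more, the 22 peaks made 9 regions, of which 5 were found in 2 or more of the 6 Homeostasis lists. All 5 held peaks of both antibodies, which makes 5 of the 9 regions. Over the whole series, 50% of 17229 Homeostasis regions (8615) were found in 2 or more lists and 43.1% (7433) with both antibodies. The 43.1% is a share of all regions, and a region found in 1 list cannot hold both antibodies. Both regions of Ryr2 that were found in 5 lists belong to the 14.4% of regions found in 5 or 6. Of the 22 peaks, 20 were 101 bp wide and the widest was 113 bp, the narrow form of the lists as a whole.

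None of these peaks lay at a start site of the gene it was counted for. RefSeq promoter windows (GRCm38.p6, 250 bases before to 50 after a start site) were given for 8 of the genes, 11 windows in all, and 0 of them overlapped a peak of any of the 12 lists. This was the rule in the series: 0.08% of 21263 promoter windows overlapped a Homeostasis peak. The windows of the 3 long genes are shown because they differ in CG dinucleotides, the feature that Polycomb promoters are known for. CG, which reads the same on both strands, occurred at least 1 time in the 250 bases before the start in 93.4% of all windows, with a median of 10. The bases before the start are given 5′ to 3′ on the minus strand, the strand of all 3 genes, with each CG in capitals, for Ryr2 (chr13:12106946-12107195), the internal start of Cacna1c with the most CG (chr6:119108496-119108745) and Ttn (chr2:76982548-76982797).
Ryr2: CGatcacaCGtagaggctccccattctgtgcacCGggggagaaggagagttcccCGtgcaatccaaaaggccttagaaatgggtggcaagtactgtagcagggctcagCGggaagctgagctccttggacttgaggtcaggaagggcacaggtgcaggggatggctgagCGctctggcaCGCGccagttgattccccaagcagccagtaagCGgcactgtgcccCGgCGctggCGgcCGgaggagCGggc
Cacna1c: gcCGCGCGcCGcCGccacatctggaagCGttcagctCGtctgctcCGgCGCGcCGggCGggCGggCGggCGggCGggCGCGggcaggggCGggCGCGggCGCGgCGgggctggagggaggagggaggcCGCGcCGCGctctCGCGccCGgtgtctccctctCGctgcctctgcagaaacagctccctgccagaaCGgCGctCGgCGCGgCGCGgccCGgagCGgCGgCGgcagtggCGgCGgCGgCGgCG
Ttn: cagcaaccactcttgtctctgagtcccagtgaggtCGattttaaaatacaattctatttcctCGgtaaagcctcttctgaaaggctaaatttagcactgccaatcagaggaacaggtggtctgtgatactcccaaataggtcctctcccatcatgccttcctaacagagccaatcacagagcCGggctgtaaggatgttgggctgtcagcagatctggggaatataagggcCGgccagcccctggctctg
The Cacna1c window shown held 48 CG, more than 99.8% of all windows, and the nearest Homeostasis peak lay 38.0 kb from it. The other 2 windows of Cacna1c held 5 and 2 CG, below the median of all windows, with the nearest peaks 214 and 33.4 kb away. The Ryr2 window held 14, with the nearest peak 24.7 kb away. The Ttn window held 4, with the nearest peak 56.3 kb away.

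After paraquat, 0 of the 217 listed peaks belonged to any of the 9 genes. The Damage lists of BMI1 held 0, 0 and 0 and those of H2AK119ub 0, 0 and 0, against 5, 4 and 2 for Homeostasis BMI1 and 3, 4 and 4 for Homeostasis H2AK119ub. Of all protein-coding genes, 0.283% had a peak in any Damage list. With so few Damage peaks, 0.120 were expected over the 9 genes and all 6 Damage lists, and 0 of 217 allows a share of up to 1.38% of peaks (3 counts of the total, counting error only). The share at homeostasis was 0.0555%, so a difference in the share of peaks at these genes was not detectable. List length moved with treatment, and its part in the count of each gene was not tested.

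Per gene, the difference in mean peaks between Damage and Homeostasis was tested with treatment permuted within antibody. For Ryr2 every Damage library (0 peaks) lay below every Homeostasis library (1 to 3 peaks) with both antibodies, a difference of -2.0 peaks per library. The exact permutation p was 0.005, the smallest that 400 arrangements allow, and the adjusted p over all genes was 0.197. Over the 6 Damage lists only 0.0433 Ryr2 peaks were expected, so 0 there was near fixed by the short lists. The test cannot tell list length from a change at the gene. Such full separation was seen in 1 of the 9 genes and in 2.54% of protein-coding genes, beside 2.55% with a peak in all 6 Homeostasis lists. For Cacna1c the difference was -1.0 (exact permutation p = 0.08) and for Myl3 -0.5 (exact permutation p = 0.2), and their groups overlapped at 0. Within a single antibody, 3 against 3 libraries cannot give an exact p under 0.1, and Ryr2 gave 0.1 with each. After Benjamini-Hochberg adjustment, 0 of 9 genes and 0 of 21887 passed (0%), while 1012 genes had an unadjusted exact permutation p under 0.05, 1011 of them lower after damage. At least 2189 genes would have to reach that smallest exact permutation p for any to pass, and 555 did. Restricted to genes with a peak in 3 or more of the 12 libraries, 1007 genes fell and 1 rose, and Ryr2 was the one of the 9 among them (adjusted p = 0.0182, exact permutation test). Genes enter that restricted set through their Homeostasis peaks, so it adds no support.

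The antibodies were compared at homeostasis as peaks per 1000 listed peaks, because list lengths differed. Ryr2 had 0.303 ± 0.0829 for BMI1 and 0.496 ± 0.437 for H2AK119ub (SD, n = 3 each; exact permutation p = 0.9). Its H2AK119ub value was 0.244 without replicate 1 of Homeostasis H2AK119ub, the list of 2000 peaks, which puts it below BMI1. Cacna1c had 0.155 ± 0.138 for BMI1 and 0.113 ± 0.137 for H2AK119ub (n = 3 each; exact permutation p = 0.8), and this order also turned without that list, at 0.155 and 0.170, and without Homeostasis BMI1 replicate 2, at 0.0996 and 0.113. Myl3 had 0.148 ± 0.130 for BMI1 and 0.167 ± 0.289 for H2AK119ub (n = 3 each; exact permutation p = 1), and its H2AK119ub value was 0 without that list, while without Homeostasis BMI1 replicate 2 the values were 0.222 for BMI1 and 0.167 for H2AK119ub. The values of the antibodies overlapped at every one of the 9 genes, and 1.17% of protein-coding genes were fully separated. After adjustment 0 genes of the series passed (0%). With 20 arrangements the test cannot go below 0.1, so 0 genes could have an unadjusted p under 0.05, and these values do not show that the antibodies are alike.

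Other genes of the same pathways were taken from 2 lists. Of all protein-coding genes, 19.3% had a Homeostasis peak, 7.34% reached 2 or more of 3 libraries for BMI1 and 9.63% for H2AK119ub. Of 20 other calcium handling genes, 8 had a Homeostasis peak, with 2 reaching 2 or more of 3 libraries for BMI1 and 8 for H2AK119ub. Their peaks numbered 10 for BMI1, 0.456 times the number expected for their lengths, and 25 for H2AK119ub, 0.815 times. Of 24 other contractile and sarcomere genes, 3 had a Homeostasis peak, with 0 reaching 2 or more libraries for BMI1 and 2 for H2AK119ub. Their peaks numbered 3 for BMI1, 0.282 times the expected number, and 8 for H2AK119ub, 0.543 times. Their medians were 0 peaks over the 6 lists, as for all genes. None of the 44 had a peak in Homeostasis H2AK119ub replicate 1, the list of 2000 peaks, so their H2AK119ub peaks came from replicates 2 and 3. None had a peak in a Damage list, and in the test of Damage against Homeostasis 0 passed in either direction.

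Calcium channel genes of the first list held from 0 to 7 peaks. Cacna1d, another L-type channel subunit (451 kb), had 1, 2 and 0 BMI1 peaks and 0, 2 and 2 H2AK119ub peaks, 7 against 6.81 expected. A region 206 kb inside it was found in 4 lists. Cacna2d1, an auxiliary channel subunit (440 kb), had 7 against 6.88 expected, of which 6 came from H2AK119ub replicates 2 and 3. Cacna1g, a T-type channel subunit (66.0 kb), had 4 against 1.15 expected. Cacnb2, an auxiliary channel subunit (385 kb), had 0 against 5.58 expected. Adrb1, the beta-1 adrenergic receptor gene (chromosome 19, 56722117 to 56725150), was the exception in length at 3.03 kb. It had 0, 1 and 1 BMI1 peaks and 0, 1 and 1 H2AK119ub peaks, all at 1 region 2.30 kb before its start (56719760 to 56719868), against 0.187 expected. Like the region past Myl3, it was 1 place shared by several lists.

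Among the remaining named genes, Trdn, which encodes triadin of the calcium release complex, had 5 peaks against 6.11 expected. Itpr2, an inositol trisphosphate receptor gene, had 3 against 6.84, and Camk2d, which encodes the main cardiac CaM kinase, had 3 against 4.05. Nebl, which encodes the Z-disc protein nebulette, had 4 against 5.68. The longest genes of the lists with no peak, named after their values were seen, were Cacnb2 and Slc8a1, the sodium-calcium exchanger gene (365 kb, 5.55 expected).

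**Figure D4:**
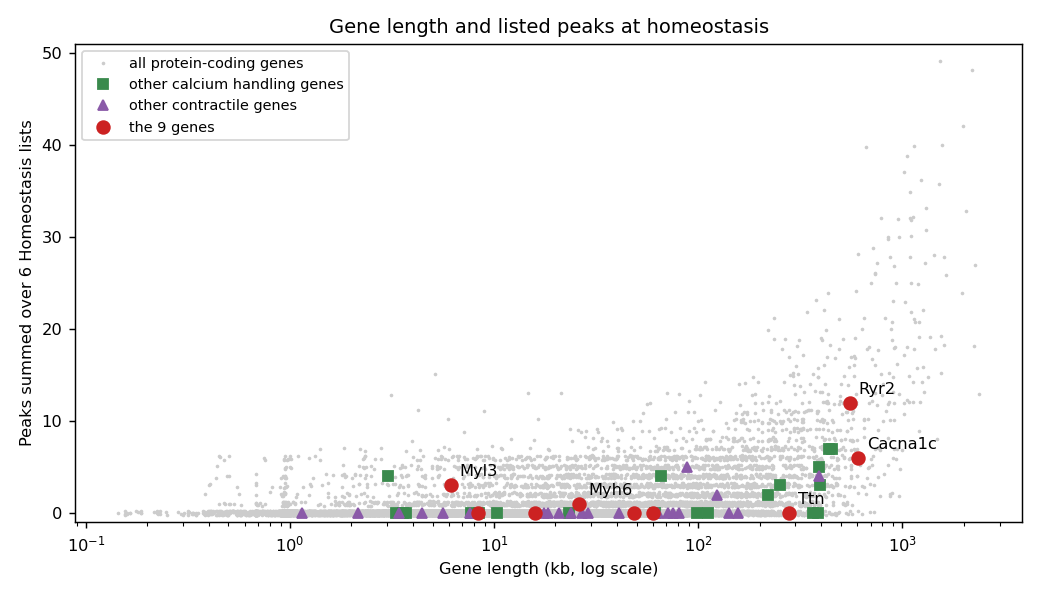
Gene length in kb (log scale) against listed peaks summed over the 6 Homeostasis lists, for the 9 genes (red), the other calcium handling genes (green squares), the other contractile genes (purple triangles) and all protein-coding genes (grey, with a vertical jitter of up to 0.25). Ryr2 stands at 12 and Cacna1c at 6, both among the spread of long genes, while Ttn stands at 0 and Myl3 at 3 in spite of its short length.

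Peaks were listed more often at longer genes. Over 100 kb, 2 of 3 of the genes described here and 8 of 13 of the listed others (61.5%) had a Homeostasis peak, beside 64.2% of all protein-coding genes of that length. Up to 100 kb, 2 of 6 and 3 of 31 (9.68%) had one, beside 13.7%. Among 196 genes within 25% of its length, those closest to Ryr2 in counts over the 6 Homeostasis lists were Ank3 (summed absolute difference of 1 peak), Abca13 and Exoc6b (2 peaks each), with Luzp2 tied with these at 2.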

How the data were processed

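BMI1 and H2AK119ub were mapped by ChIP-seq, and the authors deposited 1 peak list for each of 12 ChIP libraries. Bowtie2, HOMER 4.8 and the build GRCm38 are named in the submitters' processing notes. How peaks were called, and against which control, is not given in the sources used here. Deposited by the authors as 1 for every peak, the score ranks nothing, and the read depth is unknown. Reads were not analysed here.

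Gene boundaries and promoter sequences came from RefSeq tables of GRCm38.p6, in which all 9 genes and all 44 genes of the 2 pathway lists were matched. Peaks overlapping a gene body extended by 5 kb on each side, by 1 bp or more, were counted. The number expected for a gene was the library's peaks on its chromosome times the extended length over the range that genes and peaks span on that chromosome. Peaks outside the assembled chromosomes (143 of 39832) were left out of this. Tests were two-sided exact permutation tests on all 21887 protein-coding genes with Benjamini-Hochberg adjustment (threshold 0.05). The sample titles gave treatment and antibody, and so the groups. The procedures were tested on simulated data. There, genes without a treatment effect had the same mean in all 12 libraries. The real Damage and Homeostasis lists differ in length, so the simulation does not cover that feature of the treatment comparison. Alternatives were the gene window, merging of peaks, a stricter list, the number of libraries required, the overlap rule, the expectation, filters on genes, the scale, a block on replicate number, and the omission of each library in turn.

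The genes, the lists and the rules were chosen with earlier results of these data known. The rule for naming genes took all 9 genes, up to 8 list genes with a peak in the most Homeostasis libraries, any list gene with a Damage peak (there was none), and the 3 genes of like length with peak counts closest to those of the gene with the most peaks. Python 3.11.15, numpy 2.4.6, pandas 2.3.3, scipy 1.17.1 and matplotlib 3.10.9 were used.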

Additional observations from a re-analysis of the deposited data

How the results depend on the processing

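Leaving aside the tests across all genes and the genes with 0 peaks, which were at or near a fixed value, 27 of 32 values of the main results and 55 of 57 values of single genes and regions stayed within the spread between libraries or within 1.5 times the count as reported under the alternatives tried. With 3 of 3 libraries required, 1 gene for BMI1 and 1 for H2AK119ub had a recurrent Homeostasis peak. Leaving out 1 library at a time, and requiring both remaining ones, gave 1 to 2 genes for BMI1 and 1 to 2 for H2AK119ub. The observed over expected ratio ranged from 0.740 to 1.15 for BMI1 and from 0.623 to 1.46 for H2AK119ub. Tested on genes with a peak in 3 or more libraries, 1008 genes passed in the comparison of Damage with Homeostasis, where 0 passed over all genes; the smaller number of genes tested accounts for this, since the p-values were the same. Leaving out any library gave 0 calls there and 0 between antibodies, where no p can go below 0.1, so these counts say nothing about stability. Without the 5 kb window Myl3 had 0 peaks. Asking for peaks found in another library of the group lowered Ryr2 to 1.67 H2AK119ub peaks per library. The same demand left Cacna1c and Myh6 with 0 BMI1 peaks and Myl3 with 0 H2AK119ub peaks. These losses still counted as within the spread, because the SD between libraries was as large as the value or larger. A value within the spread is therefore not shown to be stable.

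With the replicate number as a block, 0 genes passed in either comparison. The exact permutation p of Ryr2 between treatments was 0.0312, the smallest the block allows, and 13680 genes would have to reach it for any to pass; between antibodies the smallest p the block allows was 0.25, above the threshold of 0.05. The labels do not say that a number marks a shared mouse or day. Deviations from the group mean were correlated across genes between same-numbered Homeostasis BMI1 and H2AK119ub libraries. The correlation was 0.255, 0.525 and -0.0624 for replicates 1 to 3. Replicates 1 and 2 correlated best with their own number, while replicate 3 reached 0.481 with another number. Between same-numbered Damage and Homeostasis libraries of 1 antibody, the correlations ran from -0.0285 to 0.0356. Whether list length has a part in these values was not tested, and they do not settle a pairing. Few peaks per gene and an unknown depth limit every comparison here.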
